A study of Mus musculus with 17 samples.

Results

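Intestinal cells sorted for high or low LGR5 from mice that had not been irradiated were compared on 9 arrays, which are all arrays at 0 Gy among the 17 of the series. The members were taken by their titles: 4 arrays of LGR5hi cells and 5 of LGR5lo cells. All mice carried the LGR5-GFPki allele, a knock-in in which green fluorescent protein is made from the Lgr5 locus, so the sort reads the activity of that locus. The labels call both fractions intestinal stem cells (ISCs). Sex was mixed in both groups, with 2 female arrays in each, 2 male LGR5hi arrays and 3 male LGR5lo arrays. The other 8 arrays hold the same fractions from mice given 12 Gy of gamma-irradiation and sorted 3 hours later, and serve here as a second, separate set of samples for the same contrast. A time of 3 hours is given for the non-irradiated arrays too. The labels do not give the age or number of mice, the intestinal segment, the gates or whether arrays are separate animals, so p-values measure the spread between arrays, which may be technical.

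LGR5 is a receptor for R-spondins, secreted proteins that raise WNT signalling by removing the RNF43 and ZNRF3 ligases from the cell surface. It marks the crypt base columnar cells, the cycling stem cells that lie between Paneth cells at the bottom of each small-intestinal crypt. Their daughters either keep Notch signalling on and become absorptive enterocytes, or express Notch ligands and the factor ATOH1 and enter the secretory lineages, which are Paneth, goblet, enteroendocrine and tuft cells in the usual scheme. Early secretory progeny can retain fluorescence from the reporter, and so can fall into a low gate.

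Signals are log2 values relative to the 75th percentile of the same array, so that 0 is the level of that percentile. They describe 1 probe and are not compared between genes. Of 27769 gene names tested with limma, 2643 differed between LGR5hi and LGR5lo at an adjusted p under 0.05 (9.52%). Of these, 1279 (4.61%) were higher in LGR5hi and 1364 (4.91%) were lower. The differences were unequal in size: 35 genes were at least 4-fold higher and 491 at least 4-fold lower, and at 8-fold the numbers were 2 and 149. Values of the groups did not overlap for 3016 of all genes (10.9%), and for 971 of the genes called higher and 1120 of those called lower. With the replicate number as a block, 1130 genes were higher and 1266 lower, and 897 and 1078 of them were the same genes as without it. The count of 2643 fell to 1435 without LGR5hi replicate 1, 1743 without LGR5hi replicate 2, 1647 without LGR5hi replicate 4 and 1669 without LGR5lo replicate 5, and was 4207 without LGR5lo replicate 1. LGR5hi and LGR5lo replicates 1 and 2 lay on 1 slide, replicates 3 and 4 on another, and LGR5lo replicate 5 on one more. With slide as a block 2053 genes were called, and within slide 1 and slide 2 alone, at 2 arrays a fraction, 97 and 246.

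**Figure D1:**
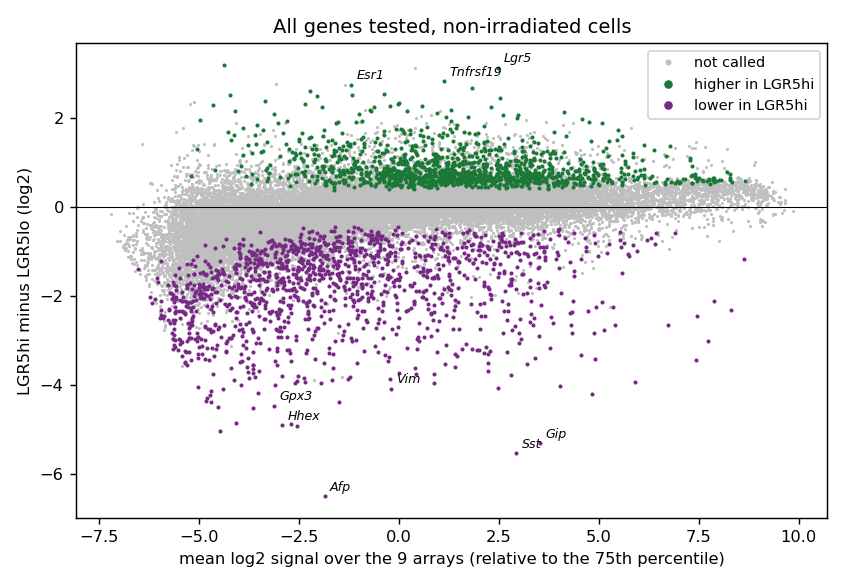
Each point is 1 gene, with its mean log2 signal over the 9 non-irradiated arrays on the x axis and LGR5hi minus LGR5lo (log2) on the y axis. Green and purple points are the 1279 genes called higher and the 1364 called lower in LGR5hi. Including genes near background, the lower side extends to -6.49 (Afp) and the higher side to 3.20 (Ackr3).

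Several arrays stand apart. LGR5lo replicate 2 had 95.6% of its probes above background, against 58.0% to 73.5% on the other arrays with flags. Relative to the other LGR5lo arrays its median deviation was 2.40 (log2) among the dimmest genes, when genes were cut into 5 classes by brightness, and -0.57 among the brightest, and without it 1186 genes were higher and 1681 lower, 1003 and 1279 of them shared. On LGR5lo replicate 4, 415 genes read more than 3 log2 units below every other LGR5lo array, while no other array had more than 7 such genes. Of these 415, 394 lay in a single disc near the middle of the array that holds 3.94% of its spots. The disc was drawn from the brighter of these same spots. Its radius was the 95th percentile of their distance from its centre, so their share inside was set by the drawing. The disc holds 1182 tested genes. With its spots left out on that array, 75 of them were called instead of 36, and 2731 genes in all. The slope that the scanner output gives for its spike-in controls was 0.79 on LGR5lo replicate 2 and 0 on LGR5lo replicate 4. On the other arrays with flags it was 0.946 to 1.005. LGR5hi replicate 1 had to be rebuilt from the deposited series table, so presence above background is counted over 3 LGR5hi and 5 LGR5lo arrays.

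Lgr5, the sorted gene (NM_010195, probe at chr10:114887403-114887462, mm9) read 4.70, 3.99, 4.12 and 4.13 on the 4 LGR5hi arrays. On the LGR5lo arrays it read 1.62, 0.30, 1.43, 1.10 and 0.99. The groups did not overlap, and all 5 LGR5lo arrays were above background, so the low fraction held Lgr5 RNA. The difference was 3.14 ± 0.28 (SE; 8.84-fold, limma adjusted p = 2.88e-06), and 2.35 by the gene's other probe. Within slide 1 it was 3.38 and within slide 2 it was 2.86. Epcam, an epithelial adhesion protein, averaged 4.80 ± 0.14 (SD, n = 4) in LGR5hi and 4.62 ± 0.30 (SD, n = 5) in LGR5lo, a difference that did not pass the test (adjusted p = 0.469). Of 23 epithelial structural genes, 1 was lower in LGR5hi, Krt20, and 0 with the replicate number as a block, while 4 were lower without LGR5lo replicate 2.

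Crypt base columnar stem cell genes were higher in LGR5hi as a group. Of 47 listed genes tested, 37 were higher and 0 were lower, with a median difference of 1.40, beside -0.08 over all genes. In 37 of the 47 all LGR5hi arrays were above all LGR5lo arrays (5.69% of all genes). Within slide 1 and slide 2 alone, 2 and 11 of the list were higher. Many genes of this list were first described from sorts on this same reporter, so the list is not independent of the gate. Tnfrsf19, a receptor of the TNF family and a WNT target, read 2.82, 2.60, 2.53 and 2.87 in LGR5hi and -0.03, -0.57, -0.09, 0.14 and -0.13 in LGR5lo. Its difference was 2.84 ± 0.22 (7.16-fold, adjusted p = 8.60e-07), and 0.97 by its other probe. Ascl2, the basic helix-loop-helix factor that maintains these stem cells, read between 5.80 and 5.90 in LGR5hi and between 3.47 and 4.33 in LGR5lo, a 3.80-fold difference. The LGR5hi arrays were closely grouped for this gene and the LGR5lo arrays were spread more widely. Olfm4, a secreted glycoprotein of stem cells, was 3.73-fold higher (5.56 to 6.76 against 4.14 to 4.37). Smoc2, a matricellular protein, was 2.63-fold higher. Scn2b, a sodium channel subunit, and Cd44, a hyaluronan receptor, were 4.03-fold and 2.83-fold higher, and Rgmb, a BMP co-receptor, by 2.07 on the log2 scale.

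**Figure D2:**
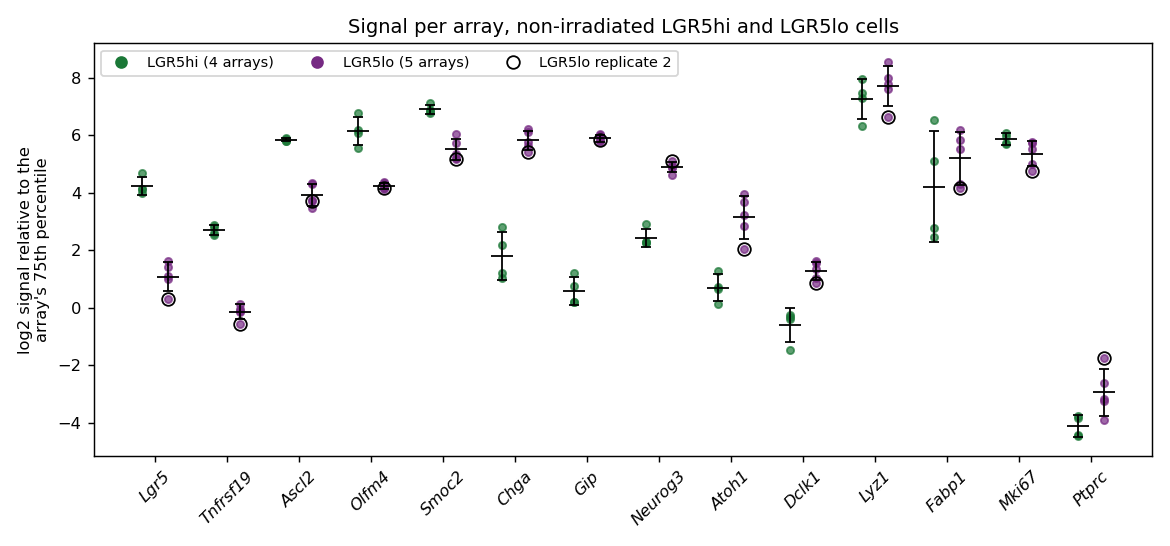
Points are single arrays of non-irradiated cells, with the log2 signal relative to the array's 75th percentile on the y axis and 14 genes on the x axis. Black bars give the mean and SD of the 4 LGR5hi (green) and 5 LGR5lo (purple) arrays, and open circles mark LGR5lo replicate 2. The stem cell genes Lgr5 to Smoc2 are higher in LGR5hi without overlap, Chga to Dclk1 are lower without overlap, and Lyz1, Fabp1, Mki67 and Ptprc overlap.

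Some listed stem cell genes did not pass the test. Ephb2, an ephrin receptor graded along the crypt, averaged 0.01 in LGR5hi and 0.02 in LGR5lo. Alcam, an adhesion molecule, and Msi1, an RNA-binding protein, differed by -0.07 and -0.52. Arhgef26 differed by 2.07 with an adjusted p of 0.101, and lies in the dark disc: with that spot left out the difference was 1.13 ± 0.26 (adjusted p = 0.0129). The transcription factors Jun and Sox4 lie there too, and changed from 1.84 and 1.92 (adjusted p = 0.118 and 0.134) to 0.97 and 0.96 (adjusted p = 0.0295 and 0.0231) when the spots were left out. Of the 15 genes of the reserve stem cell list, 6 were higher and 3 were lower, beside 4.61% and 4.91% of all genes. Clu, clusterin, was 4.88-fold higher, Igfbp4, an IGF-binding protein, 3.04-fold higher and Lrig1, a negative regulator of ERBB receptors, 2.32-fold higher. Bmi1, Hopx and Tert did not pass the test, with differences of 0.30, 0.32 and 0.09. The 3 lower genes were Ly6a, Dclk1 and Prox1. Dclk1 is also used as a tuft cell marker, and Prox1 also marks enteroendocrine and tuft cells.

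WNT targets and part of the WNT receptors moved in the same direction as the stem cell list, with which they share members. Lgr5, the sorted gene, is in the stem cell, target and receptor lists, and Tnfrsf19 and Sp5 are in the stem cell and target lists. The counts of targets and receptors are therefore not independent of the gate. Over all genes tested, 4.61% were called higher and 4.91% lower. Of 27 target genes and TCF/LEF factors, 12 were higher and 2 were lower (median 0.69), and 10 of the list were higher with the replicate block, where Lef1 and Mycl lost their calls. Sp5, a zinc-finger factor induced by WNT, read 3.88, 3.57, 3.14 and 3.69 in LGR5hi and between 0.87 and 1.74 in LGR5lo, a difference of 2.27 ± 0.20 (4.81-fold, adjusted p = 2.83e-06). Axin2, a negative feedback gene of the pathway, was higher by 1.68 ± 0.23. Tcf7l1, a TCF repressor, and Prox1, a homeobox factor, were the 2 lower genes (-2.22 and -2.04; above background on 1 and 2 of 3 LGR5hi arrays), and 4 were lower without LGR5lo replicate 1 or 2. Of 19 receptors and their ligases, 6 were higher and 0 were lower. They were Lgr5, the ligase Rnf43 (3.06-fold), the Frizzled receptors Fzd2 (2.83-fold), Fzd7 and Fzd1, and the WNT receptor Ror2. Among 20 ligands and secreted inhibitors, the ligand Wnt5b (2.56-fold) and the inhibitor Sfrp5 (2.37-fold) were higher, and 1 was higher without LGR5hi replicate 1, 2 or 3 or LGR5lo replicate 4 or 5. Wnt9a, a ligand, and Wif1, a WNT-binding inhibitor, were not above background on any of the 3 LGR5hi arrays with flags, and were at least 2.66-fold and at least 3.18-fold lower. The lower count of 2 was 5 without LGR5lo replicate 1 and 4 without LGR5lo replicate 2. These bounds set the LGR5lo mean against the lowest signal that counts as above background, and they hold for the main settings only. Under the alternatives run, the smallest log2 differences were -0.53 for Wnt9a and -0.51 for Wif1.

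Promoter windows were read for the genes that moved together, from 250 bases before to 50 after the RefSeq start (GRCm38.p6, 5′ to 3′ on the gene's strand). The letters CTTTGAT and CTTTGAA, in which TCF/LEF factors are known to bind, were searched on both strands. They occurred in 8.65% of all 32851 windows, in 6.87% of those of tested genes, in 6.15% for genes called higher and in 5.15% for genes called lower. In the windows of the stem cell list they were in 8 of 46, or 17.4%, and in those of the enteroendocrine hormone list, which was lower, in 5 of 38, or 13.2%. The letters CAGATG, an E-box of the kind bound by basic helix-loop-helix factors, were in 17.2% of all windows and 13.4% of those of tested genes. They were in 10.9% of the windows of genes called higher and 16.8% of those of genes called lower. By list the share was 8.7% for stem cell, 15.4% for enteroendocrine factor, 28.9% for hormone, 19.2% for goblet and 25.8% for tuft cell genes. Matches are a description of letters and not sites of binding, and several windows can belong to 1 gene. Windows of Sp5 (chr2:70474673-70474972) and Tnfrsf19 (chr14:61037938-61038237, 1 of its windows) are shown with the TCF letters in capitals, and that of the hormone gene Gcg (chr2:62483604-62483903) with 2 E-boxes in capitals, as examples from the higher and the lower side.
Sp5: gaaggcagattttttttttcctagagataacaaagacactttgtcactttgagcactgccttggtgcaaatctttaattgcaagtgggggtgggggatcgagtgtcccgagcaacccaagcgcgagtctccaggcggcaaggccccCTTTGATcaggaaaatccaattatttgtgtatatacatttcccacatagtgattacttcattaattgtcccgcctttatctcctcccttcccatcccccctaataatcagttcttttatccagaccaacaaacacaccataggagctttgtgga
Tnfrsf19: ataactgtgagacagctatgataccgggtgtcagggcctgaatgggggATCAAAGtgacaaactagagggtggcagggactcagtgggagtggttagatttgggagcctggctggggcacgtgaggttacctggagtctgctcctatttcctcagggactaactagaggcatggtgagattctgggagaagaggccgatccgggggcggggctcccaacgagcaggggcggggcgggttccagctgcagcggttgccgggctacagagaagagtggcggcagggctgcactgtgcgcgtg
Gcg: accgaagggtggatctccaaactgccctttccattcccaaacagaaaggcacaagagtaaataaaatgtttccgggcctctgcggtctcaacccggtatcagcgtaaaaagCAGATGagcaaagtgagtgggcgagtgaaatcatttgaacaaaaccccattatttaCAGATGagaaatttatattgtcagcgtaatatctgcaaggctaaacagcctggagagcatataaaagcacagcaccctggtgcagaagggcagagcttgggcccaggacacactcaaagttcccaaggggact

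The 12 largest higher differences with no overlap held, beside Lgr5 and Tnfrsf19, genes outside the stem cell list. Ackr3, a scavenging chemokine receptor, differed by 3.20 ± 0.57 (adjusted p = 0.00168). It read -2.91, -3.45, -2.30 and -1.68 in LGR5hi and -6.32, -5.51, -6.18, -6.10 and -4.83 in LGR5lo, where 1 of 5 arrays was above background, and with normexp the difference was 1.11, so its size rests on values near background. Esr1, the estrogen receptor alpha, was 6.76-fold higher (0.04 to 0.64 against -2.95 to -1.48), and Cbs, an enzyme of cysteine synthesis, 6.46-fold higher. Pcdh8, a protocadherin, and Edn1, the vasoactive peptide endothelin-1, were 5.11-fold and 4.98-fold higher. Under the alternatives run, their smallest log2 differences were 1.97 and 1.135. A930009A15Rik, which neighbours Lgr5 in the gene order of the RefSeq table, was 5.83-fold higher (0.81 to 1.39 against -1.86 to -0.77). Its neighbour on the far side of Lgr5, Zfc3h1, differed by 1.23 with an adjusted p of 0.354. Bex1 and Bex4 were 5.52-fold and 5.01-fold higher, but their probes lie at chrX:132674650-132674709 and chrX:132674810-132674869 (mm9) next to each other and the family members are alike in sequence, so their separate levels are uncertain. Kif26b was 5.66-fold higher by the probe tested and -0.43 (log2) by its other probe, and its smallest log2 difference under the alternatives run was 1.035. Slc38a4, an amino acid transporter, was 5.25-fold higher and lost its call with the replicate block (adjusted p = 0.0573). It was above background on 3 of 5 LGR5lo arrays. Its call was lost under 11 of 29 alternatives, and its smallest log2 difference was 1.01.

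Enteroendocrine genes were lower in LGR5hi. Of 28 hormones and amine-synthesis genes, 15 were lower and 0 higher (median -2.38), and the summed level of the list, in multiples of the 75th percentile, was 36.2 to 71.8 on the LGR5hi arrays and 402 to 558 on the LGR5lo arrays. Gip, the incretin of K cells, read 0.20, 1.21, 0.76 and 0.19 in LGR5hi and 6.02, 5.83, 5.84, 6.03 and 5.76 in LGR5lo. The LGR5lo arrays lay close together and far above every LGR5hi array, and the difference was -5.30 ± 0.39 (39.5-fold, adjusted p = 7.59e-07). Sst, the somatostatin of D cells, was 45.9-fold lower, with 1 LGR5hi array at -2.45 and the others between 0.50 and 0.87. Afp, the fetal serum protein alpha-fetoprotein, which the list holds too, differed by -6.49 ± 0.84, but was above background on 1 of 3 LGR5hi arrays, so the size rests on values near background, and it was -3.29 with normexp background correction. It read -7.13, -6.38, -2.03 and -6.27 there, against 0.52 to 1.88 in LGR5lo. Tph1, the serotonin-synthesis enzyme of enterochromaffin cells, was 15.5-fold lower, Tac1, the tachykinin precursor, 13.6-fold, Gcg, the glucagon and GLP-1 precursor, 11.5-fold and Sct, secretin, 7.11-fold. The listed genes that did not pass included Npy (0.40), Gal (-0.14) and Ddc (-0.54), and with quantile scaling 1 of the list was higher.

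The factors and the secretory machinery of these cells moved in the same direction. Under the alternatives run, the lower count of the hormone list ranged from 6 to 17. It ranged from 5 to 19 for the transcription factors and from 8 to 29 for the granule and prohormone-processing genes. Of 28 enteroendocrine transcription factors, 19 were lower and 1, Mnx1, was higher (0.74), a call lost without LGR5hi replicate 1, 2, 3 or 4 or LGR5lo replicate 3 or 5. Neurog3, the factor that starts the enteroendocrine programme, read 2.29, 2.91, 2.30 and 2.26 in LGR5hi and 4.91, 5.12, 4.61, 4.98 and 4.87 in LGR5lo, a 5.50-fold difference (adjusted p = 2.56e-06). The other probe of Neurog3 differed by -3.07. Of the factors that act after it, Isl1 was 12.2-fold and Rfx6 14.4-fold lower. Pax6 and Hhex, the latter known for D cells, were lower too (-3.69 and -4.90). They were above background on 1 of 3 LGR5hi arrays, and with normexp differed by -1.15 and -2.09. Of 38 granule and prohormone-processing genes, 26 were lower and 1, Pclo, was higher, a call lost when any non-irradiated array except LGR5lo replicate 1 was left out. Chga, chromogranin A, read 1.21, 2.18, 2.82 and 1.05 in LGR5hi and 6.12, 5.42, 5.77, 6.20 and 5.63 in LGR5lo, a 16.2-fold difference (adjusted p = 1.68e-06). Cpe, which trims prohormones, was 16.6-fold lower. Scgn, the calcium sensor secretagogin, and Resp18, a protein of neuroendocrine granules, differed by -4.87 and -4.90, and by -2.12 and -2.32 with normexp, as they were above background on 2 and 1 of 3 LGR5hi arrays. Dner, a transmembrane EGF-repeat protein, was at least 9.73-fold lower. Other genes among the 12 largest lower differences were the cannabinoid receptor Cnr1 (-4.51, and -1.42 with normexp, above background on 1 of 3 LGR5hi arrays), the sialyltransferase St8sia3 (at least 7.78-fold), Prr33 (at least 6.32-fold) and the adhesion protein Amigo2 (at least 5.47-fold). These bounds, that of Dner included, hold for the main settings only. Under the alternatives run, the smallest log2 differences were -1.445 for Dner, -1.31 for St8sia3, -1.14 for Prr33 and -1.05 for Amigo2. In bulk RNA, fewer cells of a type and less RNA per cell cannot be told apart.

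Secretory commitment factors, goblet cell genes and tuft cell genes were also lower. Of 18 secretory lineage factors, 10 were lower and 2 higher (Sox9 and Mnx1), and with median centring 5 were lower. Under all alternatives run, the lower count ranged from 0 to 11. Atoh1, the factor that commits progenitors to the secretory lineages, read 0.15, 0.71, 1.30 and 0.65 in LGR5hi and 2.84, 2.06, 3.21, 3.96 and 3.67 in LGR5lo, a difference of -2.44 ± 0.33 (adjusted p = 1.77e-04). The ranges did not meet. Spdef, which matures goblet and Paneth cells, was 7.06-fold lower and Gfi1, a repressor acting downstream of ATOH1, 5.17-fold lower. In the Notch list of 25 genes, 4 were higher and 5 lower, beside 4.61% and 4.91% of all genes. The lower count was 3 without LGR5hi replicate 1 or 4 or LGR5lo replicate 4 or 5. The ligands Dll1 and Dll4 were 2.14-fold and 3.03-fold lower, and the other probe of Dll1 differed by -0.41. The higher genes were the receptor Notch2 (2.17-fold, but 0.12 on the log2 scale by its other probe), the target Hes1, the nuclear mediator Rbpj and Dtx4.

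Of 31 goblet cell genes, 27 were lower and 0 higher (median -2.31). Under the alternatives run, the lower count ranged from 1 to 29 and the median from -2.61 to -1.84. Tff3, the trefoil peptide of goblet mucus, read 6.68, 7.40, 7.27 and 6.72 in LGR5hi and 8.76 to 9.62 in LGR5lo, a 4.96-fold difference (adjusted p = 2.71e-06). Guca2a, guanylin, was 6.29-fold lower, Agr2, a disulfide isomerase needed for mucin folding, 5.41-fold and Rep15, a RAB15 effector, 10.4-fold. Of 34 tuft cell genes, 31 were lower and 0 higher (median -1.82), and 4 were lower with median centring. Under all alternatives run, the lower count ranged from 0 to 31 and the median from -1.98 to -1.29. Dclk1, a kinase used as a tuft cell marker, read -1.48, -0.31, -0.37 and -0.26 in LGR5hi and 0.87 to 1.61 in LGR5lo, a 3.70-fold difference (adjusted p = 6.80e-04). The taste channel Trpm5 and the tuft cell factor Pou2f3 were lower, with log2 differences of -1.94 and -1.58. Gfi1b (3.01-fold), Alox5 (3.93-fold), which begins leukotriene synthesis, and Vav1 (3.04-fold) were lower, and these 3 are also genes of blood cells.

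**Figure D3:**
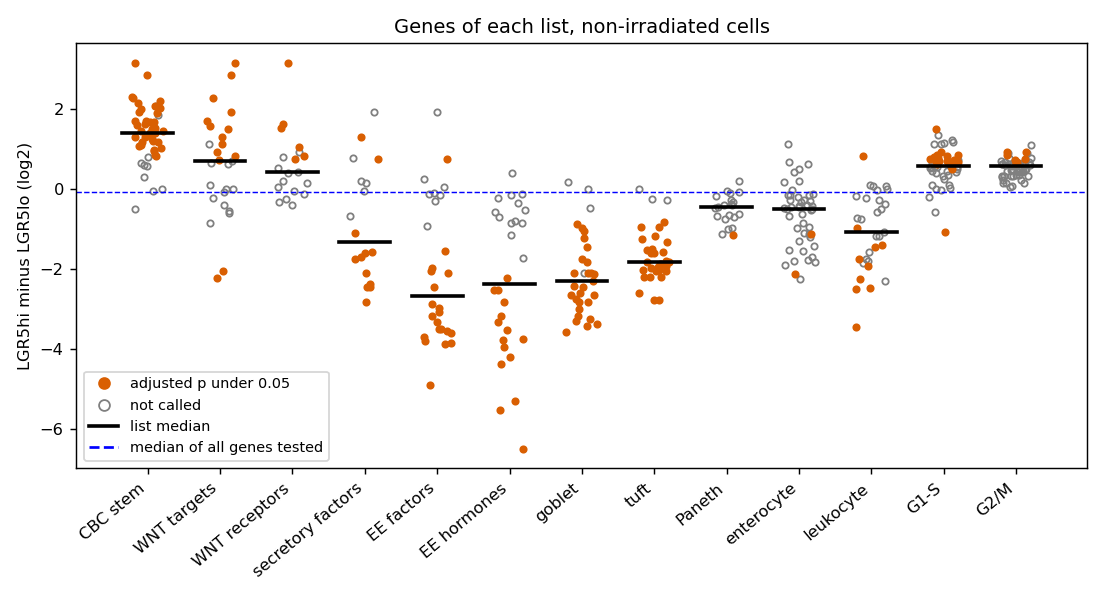
Each point is 1 gene of a list in non-irradiated cells, with LGR5hi minus LGR5lo (log2) on the y axis and 13 lists on the x axis (CBC, crypt base columnar; EE, enteroendocrine). Filled points passed the test, black bars are list medians and the dashed line is the median of all genes tested, -0.08. The stem cell list lies above the line, and the enteroendocrine, goblet and tuft lists lie far below it. Of the Paneth and enterocyte lists, 1 of 21 and 2 of 46 genes passed, all lower, beside 4.91% lower of all genes.

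Paneth cell and enterocyte genes were called lower at about the share of all genes tested, which was 4.91%. Their list medians were -0.44 and -0.50, beside -0.08 over all genes. Of 21 Paneth genes, 1 was lower (Pla2g2a, which lost its call with the replicate block, adjusted p = 0.122, and without LGR5hi replicate 1, 3 or 4 or LGR5lo replicate 4 or 5). Lyz1, lysozyme, was bright in both fractions, at 7.31, 7.47, 7.96 and 6.31 in LGR5hi and 7.61, 6.63, 8.54, 7.98 and 7.77 in LGR5lo. The ranges overlap, and the difference was -0.44 ± 0.37 (adjusted p = 0.462). Of 46 enterocyte genes, 2 were lower, Cdhr5 and Krt20, and 0 with the replicate block, whereas 6 were lower without LGR5lo replicate 2 and 10 without LGR5hi replicate 3. Without LGR5hi replicate 1 or 4 or LGR5lo replicate 5 the count was 0, and without LGR5lo replicate 4 it was 1. Fabp1, the liver-type fatty acid binding protein, read 2.79, 5.09, 6.53 and 2.46 in LGR5hi and 4.32, 4.15, 6.18, 5.85 and 5.51 in LGR5lo (difference -0.98 ± 0.79). Alpi, the brush-border alkaline phosphatase, ran from -2.07 to 3.06 in LGR5hi and from 0.42 to 2.87 in LGR5lo. For both genes LGR5hi replicate 3 was the highest and LGR5hi replicate 4 the lowest of all 9 arrays. The mean log2 signal of the whole list ranged from 1.04 to 3.98 over the LGR5hi arrays and from 2.24 to 3.69 over the LGR5lo arrays, and the LGR5hi range held the whole LGR5lo range.

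Genes of other cell types were examined because a low gate can admit them. Of 31 leukocyte markers, 9 were lower and 1, Lck, was higher, beside 4.91% lower and 4.61% higher of all genes. The list median was -1.07, beside -0.08 over all genes. The summed level of the list was 58.2 to 84.1 in LGR5hi and 72.9 to 215 in LGR5lo. The count of 9 was 5 without LGR5hi replicate 1 or 2, 14 without LGR5lo replicate 3 and 6 with the replicate block, and Lck lost its call without LGR5hi replicate 1, 2 or 4. The lower genes included Nkg7 (-2.48, limma adjusted p = 1.26e-04), Coro1a (-1.46) and Rac2 (-1.41). Cd52 was lower too (-3.45, limma adjusted p = 0.00999), and was above background on 2 of 3 LGR5hi arrays. Ptprc, the pan-leukocyte CD45, did not pass. It read -3.75, -4.43, -3.82 and -4.45 in LGR5hi and -3.91, -1.74, -3.16, -3.24 and -2.61 in LGR5lo (adjusted p = 0.0896). Ms4a1, Itgax and Laptm5 were not above background on any of 3 LGR5hi arrays. Of 22 stromal and endothelial markers, 2 were lower, Thy1 and Vim, and the summed level was 19.5 to 24.7 against 21.9 to 41.0. Vim, vimentin, read -3.13, -2.31, -2.10 and -2.32 in LGR5hi and from 1.33 to 1.84 in LGR5lo, a 16.9-fold difference (adjusted p = 4.04e-08), while none of the listed collagen genes tested passed. Thy1, a surface antigen of fibroblasts and T cells, lost its call without LGR5lo replicate 2 (adjusted p = 0.0511). None of 7 erythrocyte genes passed the limma test, and 2 had an unadjusted p under 0.05. The part of these cells in the tuft and enteroendocrine results was not tested.

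Most cell cycle and growth genes did not pass the test after adjustment. Those called were nearly all higher in LGR5hi, in numbers that varied with single arrays. Of all genes tested, 4.61% were called higher. Before adjustment, more of the listed genes had a limma p under 0.05, in either direction. They were 37 of 49 in the G1 to S list, 29 of 52 for mitosis and 19 of 47 for ribosome biogenesis. Of 49 G1 to S and DNA replication genes, 17 were higher and 1, E2f2, was lower (median 0.57). With the replicate block 8 were higher, with median centring 1, and leaving out single arrays gave from 4 (LGR5hi replicate 2 or LGR5lo replicate 5) to 27 (LGR5lo replicate 1), with 5, 7 and 10 without LGR5hi replicates 1 and 4 and LGR5lo replicate 4. Cdk6 and Cdk4, the kinases that start G1 progression, were 2.81-fold and 1.70-fold higher. Of 52 G2 and mitosis genes, 7 were higher (median 0.58), with 15 under the replicate block and 0 under median centring. That count was 0, 1 and 4 without LGR5hi replicates 1, 3 and 4, and 15, 3, 18, 3 and 1 without LGR5lo replicates 1, 2, 3, 4 and 5. Mki67, the proliferation antigen, read 6.09, 5.69, 5.97 and 5.72 in LGR5hi and 5.75, 4.77, 5.72, 5.52 and 5.01 in LGR5lo. It was bright in both fractions, and its difference of 0.51 ± 0.19 did not pass (adjusted p = 0.105). Of 47 ribosome biogenesis genes, 7 were higher (2 with the replicate block), and that count was 1, 2, 2 and 4 without LGR5hi replicates 1, 2 and 4 and LGR5lo replicate 5, and 15 without LGR5lo replicate 1. None of 41 respiratory chain genes passed the limma test and 0 had an unadjusted p under 0.05, while 1 was lower without LGR5lo replicate 2 and 3 with quantile scaling.

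Signalling genes moved in both directions. Over all genes tested, 4.61% were called higher and 4.91% lower. The lower counts of the p53 and ephrin lists given here were near that share. Cdkn1a, the cyclin-dependent kinase inhibitor p21, read -0.82, 0.08, 0.87 and -0.82 in LGR5hi and 2.07, 1.92, 2.10, 2.75 and 2.44 in LGR5lo, a 5.38-fold lower level (adjusted p = 6.19e-05). The smallest difference among its 3 probes was -0.71. Of 40 p53 target genes, 5 were higher and 2 lower. The higher count was 3 without LGR5lo replicate 2, 1 without LGR5hi replicate 1 and 2 or 3 without LGR5hi replicates 2 and 4 and LGR5lo replicates 4 and 5. In the BMP list of 27 genes, 4 were higher and 4 lower, and 2 were higher without LGR5hi replicate 1, 2 or 4 or LGR5lo replicate 5. Of the lower genes, the ligands Bmp2 and Bmp4 differed 2.86-fold and 2.42-fold, Id4, an inhibitor of helix-loop-helix factors, 9.22-fold, and Fst, follistatin, at least 2.09-fold, while Rgmb had the largest of the higher differences. The bound of Fst holds for the main settings, and its smallest log2 difference under the alternatives run was -0.43. Klf4, a factor of differentiated epithelium, was 2.95-fold lower. In the EGF list, Nrg4, an ERBB4 ligand, was 2.46-fold higher and Egf 2.56-fold lower. Of 18 ephrin receptors and ligands, 4 were higher and 1 lower, and 1, 2 and 2 were higher without LGR5hi replicate 1, LGR5hi replicate 4 and LGR5lo replicate 5. The ligands Efna4 and Efna1 were 2.43-fold and 2.06-fold higher, and the ligand Efnb2 was 2.96-fold lower (-0.74 on the log2 scale by its other probe).

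Of 20 genes of MHC class II and antigen presentation, 5 were higher and 0 lower (median 0.60), and 7 with the replicate block. H2-Eb1, a class II beta chain, read 6.60, 6.52, 5.89 and 6.81 in LGR5hi and 5.24, 4.28, 4.71, 4.63 and 4.72 in LGR5lo, a 3.35-fold difference (adjusted p = 0.00474). The groups did not overlap. Cd74, the invariant chain, was 2.81-fold higher (adjusted p = 0.0306), but missed the threshold without LGR5lo replicate 2 (adjusted p = 0.0531). The list's count was 1 without LGR5hi replicate 1, 2 or 4 or LGR5lo replicate 5, and 3 without LGR5lo replicate 3. Of 32 interferon response genes, 4 were lower, Usp18 (5.06-fold), Oas2 (3.34-fold), Mx1 and Irf7, and 7 were lower without LGR5lo replicate 1 or 2. The shares over all genes tested were 4.61% higher and 4.91% lower.

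The same contrast after 12 Gy, in 8 other arrays, called 610 genes higher (2.2%) and 1135 lower (4.09%), or 1745 in all (6.28%). That total was 1060 without irradiated LGR5lo replicate 1. The contrasts without irradiation and after 12 Gy share an estimate of the spread over all 17 arrays, so their calls are not fully independent. Of the genes called without irradiation, 1217 of 1279 higher genes (95.15%) and 1259 of 1364 lower genes (92.3%) had the same sign after 12 Gy, beside 60.4% of all genes. Calls were shared for 377 (29.5%) and 754 (55.3%), and 3 genes were called in opposite directions. Pearson's r across the 2643 called genes was 0.872, and 0.538 across all genes. Genes are not independent replicates, and this correlation is a description. Lgr5 differed by 2.89, Chga by -4.79, Neurog3 by -2.20 and Gip by -6.28 after 12 Gy. The stem cell list had 27 genes higher and 0 lower, the goblet list 26 lower, the tuft list 22 lower and the hormone list 17 lower. Not every list repeated. The G2 and mitosis list had 0 higher and 1 lower (median -0.305, beside 0.58 without irradiation). The leukocyte list had 1 higher and 2 lower (median 0.01, beside -1.07). Differences between the arms were not tested for lists.

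**Figure D4:**
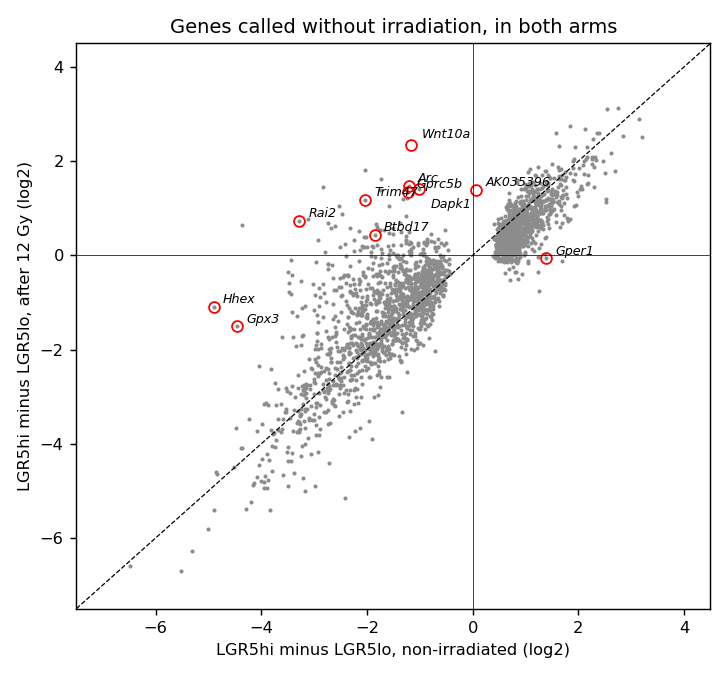
Each grey point is 1 of the 2643 genes called without irradiation, with LGR5hi minus LGR5lo (log2) in non-irradiated cells on the x axis and after 12 Gy on the y axis. The dashed line marks equal differences, and red circles mark the 11 genes for which the difference between the arms was called. Most points have the same sign on both axes, and 10 of the 11 circled genes lie above the line.

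The sort difference itself differed between the arms for 11 genes (0.0396% of those tested), with a difference that was lower without irradiation than after 12 Gy for 10 (0.036%) and higher for 1 (0.0036%). Hhex read -6.55, -5.29, -4.55 and -6.19 in non-irradiated LGR5hi and -1.12, -0.45, -0.73, -0.65 and -0.77 in LGR5lo. After 12 Gy it read -2.75, -1.44, -2.12 and -2.98 in LGR5hi and -1.84, -0.20, -1.51 and -1.38 in LGR5lo. The LGR5hi arrays were higher after 12 Gy and the groups overlapped there, and the difference of effects was -3.81 (adjusted p = 0.0340). Gpx3, a secreted glutathione peroxidase, differed by -4.45 without irradiation, where it was above background on 1 of 3 LGR5hi arrays, as was Hhex, so both sizes rest on values near background. After 12 Gy it read -2.07, -1.19, -2.06 and -1.97 in LGR5hi and -0.56, 0.41, -0.74 and -0.39 in LGR5lo, still without overlap (difference of effects -2.95, adjusted p = 0.0240). Rai2 differed by -3.28 and 0.73, and Arc, an immediate early gene of neurons, by -1.20 and 1.47. Wnt10a was not above background on any non-irradiated array with flags and differed by 2.34 after 12 Gy. The others were Dapk1, Gprc5b, Trim47, Btbd17 and AK035396, and Gper1 as the higher one. This count was 0 without non-irradiated LGR5hi replicate 1 or 2, irradiated LGR5hi replicate 3 or irradiated LGR5lo replicate 1, 3 or 4, 2 without irradiated LGR5hi replicate 1, 4 without non-irradiated LGR5hi replicate 4 and 24 without non-irradiated LGR5lo replicate 2.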

How the data were processed

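Total RNA of sorted cells was hybridised to Agilent arrays with 1 dye (Cy3). Per the file headers, the authors' scanner output gives a linear intensity for each spot after background subtraction and detrending by Agilent Feature Extraction 10.7.3.1. A deposited table of log2 values was found, by comparison with that output, to be the signal less the array's 75th percentile and less the probe's median. Its normalization tool is not given in the sources used here.

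The output for LGR5hi replicate 1 at 0 Gy could be read only in part, so this array was rebuilt from the deposited table and the probe offsets of the rest. The rebuilding matched scanner values within 0.05 log2 for 99.73% to 99.96% of probes on the 16 whole arrays. Each log2 signal was scaled to the 75th percentile of its array. Of 55681 probes, 41440 passed the presence filter (4 arrays or more), and the brightest probe of a gene name was tested. This gave 27769 names, of which 17934 were in the RefSeq table.

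A limma 3.58.1 model (R 4.3.3) with 1 mean per group used the 17 arrays, and p-values were Benjamini-Hochberg adjusted with a cutoff of 0.05. SE is from the model (median 0.25). Same-numbered arrays of the fractions deviated together in 4 of 4 pairs (r 0.12 to 0.34, against -0.23 to 0.08 for other numbers), so the blocked value is printed for part of the results that it changes. The labels do not say what a number stands for.

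Members and the 31 gene lists were chosen with earlier results of these data known. Named are the 12 largest differences in each direction among called genes without overlap that are in the RefSeq table, up to 5 genes per list, taken by lowest p, and fixed markers. Other genes were named after their values were seen. Muc2 is not analysed here. The text gives part of the genes this rule names. Alternatives varied scaling, background (normexp, offset 50), filters, probe choice, covariates, weights and the arrays used. Leaving out the dark disc, and 3 combinations of settings, were added after seeing the data. The model was tested on simulated data.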

Additional observations from a re-analysis of the deposited data

Results flagged for a closer look

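Among 346 sets of values, the LGR5hi and the LGR5lo arrays of each of 173 named genes, 21 had 1 array set far from the others by Dixon's criterion, or 6.07%, and chance alone gives about 1 in 20. In LGR5lo replicate 2 there were 7 of them: Prr33 (-0.65), Tek (-1.74) and Bmp4 (-1.35) high, and Dll1 (1.24), Fabp6 (4.07), Ehf (3.51) and Bmp2 (-0.63) low. In LGR5hi replicate 1, which was rebuilt from the series table, Dclk1 (-1.48), Kctd12 (1.23), Gfi1b (-2.29), Alox5 (-0.71) and Oas2 (-1.97) were low, and Ddb2 (1.94) high. The other arrays were LGR5hi replicate 2 for Neurog3 (2.91), LGR5hi replicate 3 for Afp (-2.03), Mybbp1a (5.26) and Polr1a (2.62), LGR5hi replicate 4 for Sst (-2.45) and Cd52 (-6.94), LGR5lo replicate 1 for Mybbp1a (5.46) and LGR5lo replicate 4 for Wif1 (-1.75).

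The sort difference of 3 named genes differed between the arms by the limma test of the difference of effects. It was -3.81 for Hhex, -2.95 for Gpx3 and -3.50 for Wnt10a, without irradiation minus after 12 Gy. These sizes rest on values near background: without irradiation Wnt10a was above background on 0 of 3 LGR5hi and 0 of 5 LGR5lo arrays, and Hhex and Gpx3 on 1 of 3 LGR5hi arrays.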

How the results depend on the processing

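None of the 138 called genes named by the rule changed sign under the alternatives run. The counts of 2643 called genes (1279 higher, 1364 lower), of 1745 after 12 Gy and of 11 for the difference of effects moved as follows, and apart from smaller sets of arrays the cause was not tested. Median centring gave 952 (450 and 502), 666 and 0, and the median of all genes moved from -0.08 to 0.11 with quantile scaling and 0.39 with median centring. Normexp on 16 arrays gave 987 (404 and 583), and 2 for the difference of effects. A random replicate block gave 4187 (2260 higher), 2890 and 43. Slide as a block gave 2 for the difference of effects. Array weights gave 5063 after 12 Gy and 61. The arrays of 1 arm alone gave 1153 (377 and 776) and 3110. Slide 1 alone gave 97 (3 and 94), 316 and 0, and slide 2 alone 246 (50 and 196), 118 and 0. With LGR5lo replicate 2 left out, the replicate block gave 5744 after 12 Gy and 94, and quantile scaling 3107 and 23. The replicate block over the non-irradiated arrays alone gave 372 (72 and 300). Leaving out single arrays gave 1435 to 4207 called genes, 510 to 2425 of them higher, 1060 to 1440 called after 12 Gy with an irradiated array left out, and 0 to 24 for the difference of effects.

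Of 138 named genes called, 125 kept the call with the fixed replicate block, 133 without LGR5lo replicate 2, 86 with median centring and 138 with the series table's values or with the dark disc left out. The number of arrays limits the precision, and genes near background are bounded only, by bounds that hold for the main settings.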
